A study of Mus musculus with 12 samples.

Results

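The transcriptome of preleukemic *Asxl1Y588X*Tg LK cells was compared with that of WT LK cells across all genes, with the functional classes, the size of the changes, the lineage programs and the genes with lower levels as the subject. LK cells are bone marrow cells without surface markers of mature blood lineages (Lin-) with the receptor for stem cell factor on their surface (cKit+), a mixture of HSCs and the progenitors made from them. The comparison uses 6 of the 12 libraries of the series, 3 from *Asxl1Y588X*Tg mice and 3 from WT mice, and 15825 of the 55291 genes in the table had enough counts to be tested. All mice were 12 months old, and each library came from the LK cells of 1 mouse. *Asxl1Y588X*Tg mice carry a transgene for a C-terminally truncated ASXL1 protein beside their own *Asxl1* alleles, and the promoter that drives it is not given in the sources used here. The other 6 libraries came from mice with 1 deleted allele of *Kdm6b*, a demethylase of H3K27me3, without (*Kdm6b* delta/+) or with the transgene (*Asxl1Y588X*Tg *Kdm6b* delta/+). That deletion was induced in *Mx1Cre* mice by pI:pC, which also triggers an interferon response, and whether the WT and *Asxl1Y588X*Tg mice of these libraries carried *Mx1Cre* or received pI:pC is not stated. The groups of this comparison share their age, tissue and sort, and differ by label in the transgene alone.

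ASXL1 is a chromatin protein that works with Polycomb repressive complex 2, which places the repressive mark H3K27me3, and with the BAP1 deubiquitinase. Truncating mutations of *ASXL1* recur in myeloid malignancies and in clonal hematopoiesis. LK cells give rise to neutrophils, monocytes, eosinophils, mast cells, erythrocytes and megakaryocytes, so a change in the RNA of the whole fraction can come from a gene's level within cells or from the number of cells of a type. In bulk libraries fewer cells of a type and less RNA per cell cannot be told apart.

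The total count of a library lay between 16310456 and 19208274 in WT and between 16738503 and 17471909 in *Asxl1Y588X*Tg. Some features of single libraries touch the results. WT replicate 1 had the most reads but the fewest detected genes (18630, against 22727 and 23759 in the other WT libraries and 24053 to 24268 in *Asxl1Y588X*Tg). WT replicate 2 stood apart in its erythroid and granulocyte genes, as given below beside those lists. *Asxl1Y588X*Tg replicate 2 held transcripts of the Y chromosome (1102 counts of *Ddx3y*, against 0 to 3 in the other 5 libraries). *Asxl1* itself was read at 2506, 3045 and 2730.3 normalized counts in WT and 2868, 2991 and 3009.9 in *Asxl1Y588X*Tg (log2 fold change 0.10, SE 0.09), so the groups overlapped. Normalized counts are counts scaled to a common effective library size, and whether reads of the transgene were counted on *Asxl1* is not known. *Kit*, the receptor used for the sort, was at 6293, 5725 and 6029 in WT and 6787, 7584 and 5992 in *Asxl1Y588X*Tg (log2 fold change 0.17, SE 0.10), and *Kdm6b* differed by 0.08 (SE 0.09).

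The response was one-sided. With edgeR's quasi-likelihood test, an adjusted p under 0.05 and a fold change above 1.5, 250 genes were upregulated in *Asxl1Y588X*Tg (1.58% of the genes tested) and 5 were downregulated (0.0316%). The median log2 fold change over all genes tested was -0.01, and RLE scaling in place of TMM gave 251 and 5. Each of the 250 genes was higher in all 3 *Asxl1Y588X*Tg libraries than in all 3 WT libraries, and each of the 5 was lower. Among all genes tested, 1646 (10.4%) lay above WT in that way and 845 (5.34%) lay below. At an unadjusted p under 0.05, 1156 genes (7.3%) were higher and 324 (2.05%) were lower. The counts of calls depended on single libraries: 134 genes were upregulated without WT replicate 3, and 113, 108 and 158 without *Asxl1Y588X*Tg replicates 1, 2 and 3. Downregulated genes numbered 42 without WT replicate 2, and 2 without WT replicate 3 or without *Asxl1Y588X*Tg replicate 2.

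**Figure D1:**
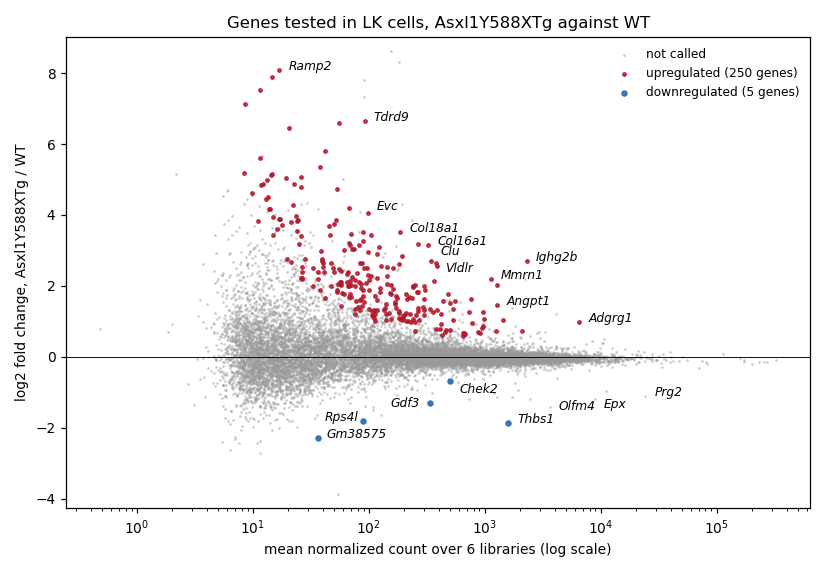
Each point is 1 of the 15825 genes tested, with its mean normalized count over the 6 libraries on a log axis and its log2 fold change of *Asxl1Y588X*Tg over WT. The 250 upregulated genes lie mostly at low and middle counts, and only 5 genes are downregulated, of which *Thbs1* has the highest count.

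The upregulated genes were mostly genes of low level. Their median normalized count was 40.2 in WT and 153 in *Asxl1Y588X*Tg, against a WT median of 262 over all genes tested. Only 8 of the 250 had a mean normalized count of at least 1000, a level reached by 4030 of the genes tested. The median rise was 2.01 on the log2 scale, or 4.03-fold. Called rises of under 2-fold numbered 22, rises of 2- to 4-fold 100, of 4- to 8-fold 67, of 8- to 16-fold 32 and of over 16-fold 29. In sum these genes took up 0.176%, 0.176% and 0.200% of the counts of the WT libraries and 0.527%, 0.527% and 0.434% of those of *Asxl1Y588X*Tg. The highest of the 6 values lay in *Asxl1Y588X*Tg replicate 1 for 109 of the genes, in replicate 2 for 114 and in replicate 3 for 27. The rule for a call used these same values, so they describe the group and test nothing.

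For 27 upregulated genes no WT library had more than 3 counts. Folds of such genes are bounds or carry wide counting intervals, and WT replicate 1, the library with the fewest detected genes, had 0 counts for 29 of the 250. *Ramp2*, an accessory protein of the receptor for adrenomedullin, had no count in WT and 102 counts over the *Asxl1Y588X*Tg libraries, which puts it at least 34.4-fold higher when WT is set to 3 counts over the group. On the same floor *Ripk4*, a kinase of epithelial cells, was at least 30.0-fold higher, the membrane protein gene *Emp2* at least 23.3-fold and *Entpd2*, an ectonucleotidase, at least 17.6-fold. *Gli3*, a transcription factor of the Hedgehog pathway, had 2 counts in WT and 86 in *Asxl1Y588X*Tg, a ratio of 43.5 with a 95% counting interval from 11.7 to 365.0. The germline helicase gene *Tdrd9* was at 0, 0 and 5.29 normalized counts in WT and 151, 311 and 85.4 in *Asxl1Y588X*Tg (adjusted p = 0.0143, edgeR's quasi-likelihood test). WT was at or near background for these genes, and all 3 *Asxl1Y588X*Tg libraries were above it.

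Of the upregulated genes, 246 were matched by symbol to the GENCODE vM21 annotation of mm10, and 241 of these were protein coding (97.97%, against 82.47% of the matched genes tested). Their median exonic length was 5707 bases against 3942 for all matched genes tested. They lay on 20 chromosomes, with the most on chromosome 3 (20 of the 784 genes tested there, 2.55%) and 10 on the X chromosome (4.0%, against 2.94% of the genes tested). In 16 cases a pair of upregulated genes lay within 50 kb of each other. Among these pairs were *Robo4* and *Robo3*, *Hoxb8* and *Hoxb5*, *Tmem176a* and *Tmem176b*, *Muc1* and *Efna1*, and the divergent pair *Evc* and *Evc2*.

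*Evc* and *Evc2* encode the partner proteins of a complex at the base of the primary cilium that passes on Hedgehog signals. *Evc* (mm10, chr5:37289098-37336894, minus strand) was at 0, 15.1 and 19 normalized counts in WT and 162, 214 and 177 in *Asxl1Y588X*Tg (log2 fold change 4.05, SE 0.73, adjusted p = 0.0439, edgeR's quasi-likelihood test). *Evc2* (chr5:37338499-37425055, plus strand) was at 23.4, 10.8 and 18 in WT and 176, 189.9 and 203 in *Asxl1Y588X*Tg (3.42, SE 0.30, adjusted p = 0.0011, same test). Both genes were close to background in WT and similar in all 3 *Asxl1Y588X*Tg libraries. Their first exons face away from each other across a gap of 1604 bases between the gene bodies. The promoters are shown because this pair was also called on the *Kdm6b* delta/+ background, as described at the end. The RefSeq promoter windows of GRCm38.p6 (mm10), 250 bases before to 50 bases after each start, are written 5′ to 3′ on the gene's own strand with CG dinucleotides in capitals. They lie at chr5:37336832-37337131 for *Evc* and at chr5:37338228-37338527 for *Evc2*, 1096 bases apart.
Evc: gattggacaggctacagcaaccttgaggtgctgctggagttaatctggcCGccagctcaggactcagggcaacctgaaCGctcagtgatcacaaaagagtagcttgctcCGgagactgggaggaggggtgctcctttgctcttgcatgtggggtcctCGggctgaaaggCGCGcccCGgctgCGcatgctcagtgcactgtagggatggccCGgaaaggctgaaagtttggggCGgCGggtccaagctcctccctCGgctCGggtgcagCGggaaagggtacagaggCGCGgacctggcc
Evc2: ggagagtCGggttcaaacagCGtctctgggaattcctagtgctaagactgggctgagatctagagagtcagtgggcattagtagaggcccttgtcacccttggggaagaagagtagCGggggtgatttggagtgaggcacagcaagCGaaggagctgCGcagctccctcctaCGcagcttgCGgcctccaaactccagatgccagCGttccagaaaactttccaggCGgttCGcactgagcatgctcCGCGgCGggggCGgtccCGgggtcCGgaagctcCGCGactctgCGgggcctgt
The *Evc* window holds 16 CG dinucleotides and the *Evc2* window 19, which read the same on both strands, and the median of 32817 promoter windows of this length is 7. At least as many were found in 33.0% of these windows for *Evc* and 28.0% for *Evc2*. No methylation or chromatin data were analysed here.

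The genes with the clearest differences had varied functions, and of those named here only *Trim47*, *Nupr1* and *Adgrg1* also stood in the HSC list. *Vldlr*, a receptor for lipoproteins and reelin (chr19:27216484-27254231), was at 95.5, 116 and 103 normalized counts in WT and 738, 661 and 572 in *Asxl1Y588X*Tg (log2 fold change 2.65, SE 0.15, adjusted p = 0.000138, edgeR's quasi-likelihood test). *Trim47*, a RING-type ubiquitin ligase that overlaps *Trim65*, was at 39.6, 50.7 and 67.7 in WT and 536, 514 and 372 in *Asxl1Y588X*Tg (3.17, SE 0.23). *Clu*, an extracellular chaperone, was at 80.2, 69.1 and 127 in WT and 556, 741 and 493 in *Asxl1Y588X*Tg (2.70, SE 0.25). The groups were several times their own spread apart in each of these genes. Other large rises were those of *Nupr1*, a stress-induced chromatin protein (3.45, SE 0.38), *Abca4*, a transporter of retinoids (3.09, SE 0.47), *Slc27a6*, a fatty acid transporter (3.03, SE 0.35), *Casp12*, a caspase of the endoplasmic reticulum (2.91, SE 0.35), and *Ehd3*, a protein of endosome recycling (2.56, SE 0.32). In normalized count, the 10 largest rises included *Adgrg1*, an adhesion G protein-coupled receptor found on HSCs, which went from 4506, 4059 and 4566 in WT to 9139.9, 9956 and 6995 in *Asxl1Y588X*Tg (0.99, SE 0.12, adjusted p = 0.00501).

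**Figure D2:**
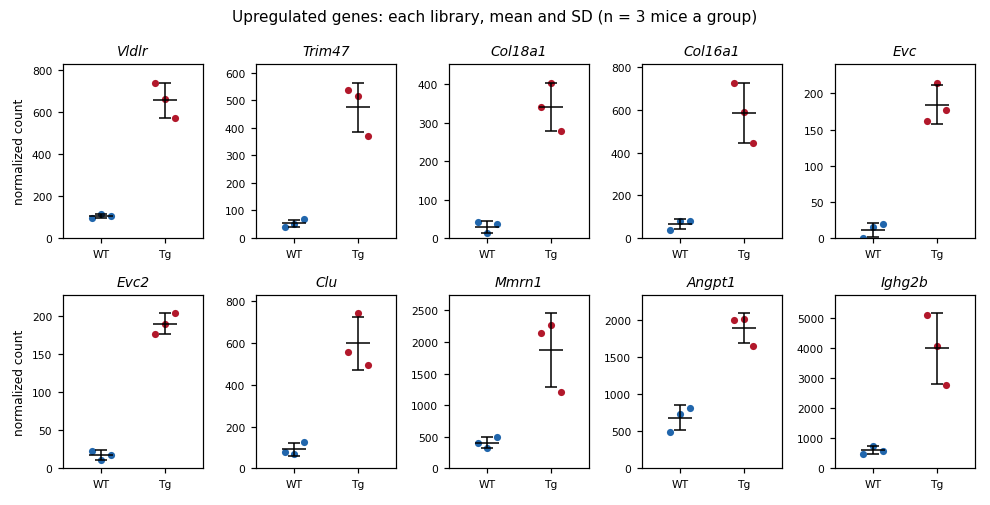
Normalized counts of 10 upregulated genes in each of the 3 WT and 3 *Asxl1Y588X*Tg (Tg) libraries, with the mean and SD of each group (n = 3). No WT point reaches the lowest *Asxl1Y588X*Tg point in any panel, and *Mmrn1* and *Ighg2b* are lower in *Asxl1Y588X*Tg replicate 3 than in the other two.

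Gene lists were written from general knowledge of the pathways, with earlier results of these data known. They are described by their counts and median beside those of all genes tested, and test nothing. Of all genes tested 1.58% were upregulated and 0.0316% downregulated, and the median was -0.01. At an unadjusted p under 0.05, 7.3% were higher and 2.05% lower. A list with shares near these differs little from all genes. Of 44 genes for collagens, laminins and basement membrane, 4 were upregulated and none downregulated, 16 were higher and 0 lower at an unadjusted p under 0.05, and the median log2 fold change was 0.82. Without WT replicate 3 or without *Asxl1Y588X*Tg replicate 1 only 2 were called, and without WT replicate 1 the median was 0.53. *Col18a1*, the basement membrane collagen that yields endostatin, was at 40.5, 11.9 and 36 in WT and 341, 403 and 277 in *Asxl1Y588X*Tg (3.51, SE 0.36, adjusted p = 0.00294, edgeR's quasi-likelihood test). *Col16a1*, a fibril-associated collagen, was at 39.6, 81 and 80.4 in WT and 725, 590.2 and 445 in *Asxl1Y588X*Tg (3.14, SE 0.29). The *Asxl1Y588X*Tg libraries were far above WT for both. *Lama5*, a laminin chain, rose by 2.63 (SE 0.44), and *Ltbp3*, which tethers latent TGF-beta in the matrix, by 1.17 (SE 0.18). *Serpinh1*, a chaperone of collagen folding, rose by 2.51 (SE 0.29). The list of stromal and osteolineage markers, cells that make such matrix in the marrow, held no called gene among 23 by edgeR or DESeq2, with 1 higher at an unadjusted p under 0.05 and a median of 0.46. Without WT replicate 3, however, 2 of these genes were called and 8 were higher at an unadjusted p under 0.05, and without *Asxl1Y588X*Tg replicate 1 the median was 0.29. Of the 23 genes 17 had a positive and 6 a negative log2 fold change. *Col1a2*, a collagen I gene of the list, differed by 0.25 and overlapped between the groups.

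Cell adhesion was the class with the most called genes after the HSC list, with 11 of 73 upregulated and none downregulated. At an unadjusted p under 0.05, 26 members were higher and 1 lower, and the median was 0.21. Without *Asxl1Y588X*Tg replicate 2, 6 were called, and without *Asxl1Y588X*Tg replicate 1 the median was 0.14. *F11r*, the junctional adhesion molecule JAM-A, was at 35.1, 43.2 and 31.7 in WT and 222, 230.2 and 195 in *Asxl1Y588X*Tg (2.55, SE 0.22, adjusted p = 0.0011, edgeR's quasi-likelihood test). *Podxl*, a sialomucin related to CD34, was at 56.8, 36.7 and 46.5 in WT and 314, 506 and 193 in *Asxl1Y588X*Tg (2.85, SE 0.36, adjusted p = 0.00539). The groups did not overlap, although *Asxl1Y588X*Tg replicate 3 had a much lower *Podxl* count than replicate 2. The laminin receptor subunit *Itga3* rose by 3.86 (SE 0.57), the tight junction genes *Ocln* by 3.81 (SE 0.77) and *Cldn5* by 2.71 (SE 0.42), and *Ptprk*, a receptor phosphatase of cell contacts, by 3.00 (SE 0.36). Their WT levels were low, with means of 3.08, 2.78, 10.2 and 13.4 normalized counts.

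Ligands and receptors rose on both sides of the same signaling axis. Of 64 genes for receptor tyrosine kinases and angiocrine ligands 7 were upregulated and none downregulated, with 23 higher and 0 lower at an unadjusted p under 0.05 and a median of 0.66. The calls numbered 4 without *Asxl1Y588X*Tg replicate 1 or 2, and the median was 0.39 without WT replicate 1 and 0.18 over the 39 of its genes whose mean count reached 50. *Angpt1*, the ligand of the receptor TIE2, was at 491, 735 and 819.5 in WT and 1992, 2009.7 and 1652 in *Asxl1Y588X*Tg (1.47, SE 0.18, adjusted p = 0.00545, edgeR's quasi-likelihood test). *Tek*, which encodes TIE2, was at 55.9, 51.8 and 96.2 in WT and 228, 265 and 220.1 in *Asxl1Y588X*Tg (1.81, SE 0.26, adjusted p = 0.00835). *Tie1*, the orphan partner of TIE2, was at 298, 245 and 365 in WT and 749, 875 and 678 in *Asxl1Y588X*Tg (1.34, SE 0.16, adjusted p = 0.00423). Each of these genes was higher in every *Asxl1Y588X*Tg library. *Fgfr1* rose by 1.56 (SE 0.28), and lost its call when any *Asxl1Y588X*Tg library was left out. Among 47 hematopoietic cytokine receptors 4 were upregulated (median 0.07; 2 called without *Asxl1Y588X*Tg replicate 1 or 2), including *Osmr*, the oncostatin M receptor, which had 0.901, 3.24 and 5.29 normalized counts in WT and 66.5, 35.4 and 34.2 in *Asxl1Y588X*Tg, and *Il27ra*, the interleukin 27 receptor, at 55.9, 101 and 109 in WT and 289, 251 and 209 in *Asxl1Y588X*Tg. *Socs3*, a feedback inhibitor of cytokine signals, was at 348, 226 and 268 in WT and 1022, 715 and 751 in *Asxl1Y588X*Tg (1.56, SE 0.19, adjusted p = 0.00489).

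The other classes described here held from 0 to 8 called genes. Of 57 G protein-coupled receptors and accessory proteins 5 were upregulated (median 0.23), against 2 without *Asxl1Y588X*Tg replicate 2, among them the accessory protein gene *Ramp2* described above, *Cysltr2*, a leukotriene receptor (2.28, SE 0.34), and *Ptger3*, a prostaglandin E2 receptor (1.55, SE 0.24). Of 49 Wnt, Notch and Hedgehog components 3 were upregulated (median 0.27), including the Notch ligand *Jag2* (1.89, SE 0.27) and the Wnt receptor *Fzd8* (1.68, SE 0.31), and 1 was called when any *Asxl1Y588X*Tg library was left out. Among transport genes 8 of 252 solute carriers, 4 of 76 ion channels and 2 of 35 ABC transporters were upregulated, beside 1.58% of all genes tested, with medians of 0.03, 0.11 and 0.00. Without *Asxl1Y588X*Tg replicate 1 or 2 a single gene of each of these lists was called. *Hox* genes had 2 of 11 upregulated and a median of 0.88, and *Hoxb5* lost its call without WT replicate 2 or 3 or any *Asxl1Y588X*Tg library. *Hoxb5* was at 0, 1.08 and 3.17 in WT and 24.8, 28.5 and 27.1 in *Asxl1Y588X*Tg, and *Hoxb8* at 0.901, 3.24 and 4.23 in WT and 40.7, 44.3 and 48.2 in *Asxl1Y588X*Tg. Both were near background in WT. By contrast, none of 65 Polycomb and Trithorax genes was called in edgeR's filtered fit to the 6 libraries, and the median was -0.03. DESeq2, edgeR on all 4 genotypes and edgeR without the expression filter each called 2 as upregulated. At an unadjusted p under 0.05, 5 were higher and 2 lower, beside 7.3% and 2.05% of all genes tested. Of 73 TRIM and antiviral effectors 2 were upregulated, *Trim47* and *Ifitm1* (1.33, SE 0.19), and 14 were higher at an unadjusted p under 0.05 with a median of 0.32. Without *Asxl1Y588X*Tg replicate 1 the median was 0.06, with 6 higher and 2 lower.

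The HSC list had 24 of 39 genes upregulated and a median of 1.78 (15 called without WT replicate 3 or *Asxl1Y588X*Tg replicate 1). Of the 250 upregulated genes, 165 were in no list. A list of 39 genes can hold only a part of the 250. The part of HSC genes in the whole response was therefore not tested. Endothelial markers overlap with genes that HSCs express, and 5 of 23 were upregulated with a median of 1.06, and 2 without WT replicate 3 or *Asxl1Y588X*Tg replicate 2. The defining endothelial gene *Cdh5* had few counts and was not called. It was at 6.31, 4.32 and 5.29 normalized counts in WT and 33.8, 9.84 and 8.04 in *Asxl1Y588X*Tg, without overlap. Of the 23 endothelial genes 18 had a positive and 5 a negative log2 fold change. The part of endothelial cells in the rises was not tested. Of 26 CDK inhibitors and quiescence genes 2 were upregulated, *Cdkn1c*, which encodes the inhibitor p57 (2.39, SE 0.39), and *Ccnd1*, which encodes cyclin D1 (1.03, SE 0.18). The median of this list was 0.04, and none was called without *Asxl1Y588X*Tg replicate 2 or 3.

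**Figure D3:**
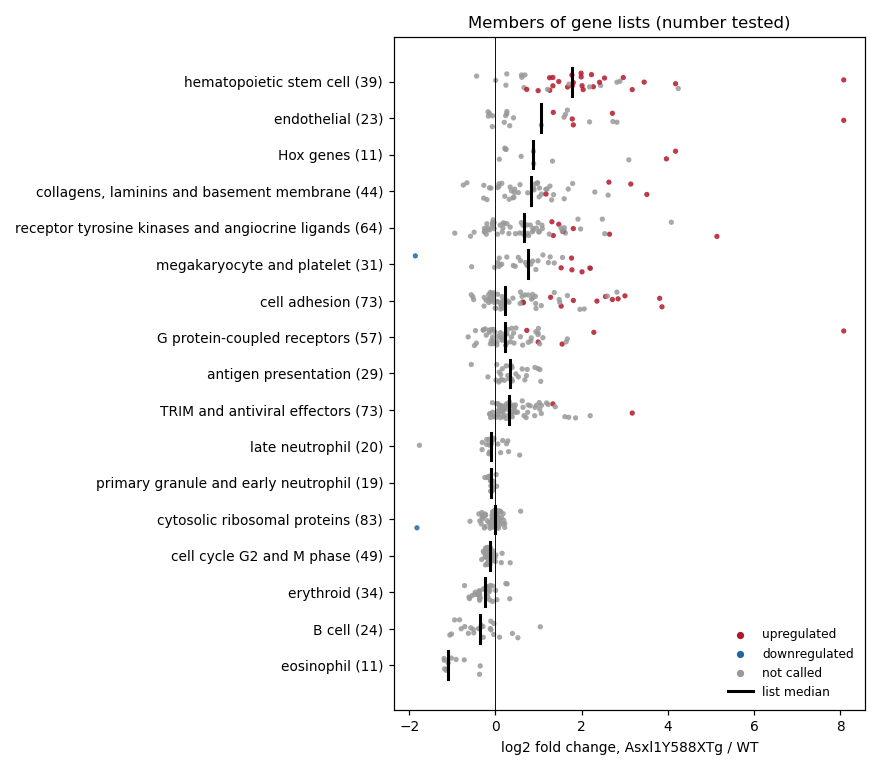
Log2 fold changes (*Asxl1Y588X*Tg over WT) of the tested members of gene lists, 1 point a gene, with the number tested in parentheses and the list median as a black bar. Medians of the HSC, endothelial, *Hox* and matrix lists lie to the right of zero, the eosinophil list lies to the left without a called gene, and ribosomal, neutrophil and cell cycle lists lie close to zero.

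Among lists of committed lineages, that of megakaryocytes and platelets had the most called genes. Of its 31 genes 5 were upregulated and 1 (*Thbs1*) downregulated, 12 were higher and 1 lower at an unadjusted p under 0.05, and the median was 0.74. Upregulated genes of the list numbered 2 without WT replicate 1 and 7 without *Asxl1Y588X*Tg replicate 3. *Mmrn1*, a platelet and endothelial storage protein, was at 397, 323 and 501 in WT and 2144, 2267 and 1206 in *Asxl1Y588X*Tg (2.20, SE 0.28, adjusted p = 0.0145, edgeR's quasi-likelihood test). *Selp*, which encodes P-selectin, was at 223, 307 and 248 in WT and 761, 744 and 729.6 in *Asxl1Y588X*Tg (1.52, SE 0.13). Both lay above WT in every *Asxl1Y588X*Tg library. *Slamf1*, a surface marker of HSCs (2.01, SE 0.29), and *Trpc6* (1.77, SE 0.30) were also upregulated. Genes of maturing megakaryocytes varied widely within *Asxl1Y588X*Tg and were not called: *Pf4*, a platelet chemokine, was at 372, 125 and 428 in WT and 549, 1746 and 432 in *Asxl1Y588X*Tg, and *Vwf* at 986, 486 and 938 in WT and 3096, 5716 and 2157 in *Asxl1Y588X*Tg (adjusted p = 0.663 and 0.145). *Asxl1Y588X*Tg replicate 2 had the highest value of both, and without it the list's median was 0.37.

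Eosinophil genes were the lineage genes with the lowest median, and none passed the threshold in edgeR's filtered fit to the 6 libraries. The median of the 11 genes was -1.10, and 9 were lower at an unadjusted p under 0.05 (2.05% of all genes tested). In all 3 libraries 8 lay below WT (5.34% of all genes tested). DESeq2 and edgeR on all 4 genotypes each called 3 of them (*Ear6*, *Prg2* and *Prg3*), and edgeR without the expression filter called 1 (*Prg3*). *Prg2*, the eosinophil major basic protein, was at 25565, 43845 and 29513 normalized counts in WT and 11487, 14689 and 20074 in *Asxl1Y588X*Tg (-1.10, SE 0.27, adjusted p = 0.16, edgeR's quasi-likelihood test). *Epx*, the eosinophil peroxidase, was at 9062, 15871 and 12016 in WT and 2986, 5553 and 7702 in *Asxl1Y588X*Tg (-1.19, SE 0.39, adjusted p = 0.392). *Ear6*, an eosinophil-associated ribonuclease with close paralogs, was at 2527, 4488 and 3207 in WT and 1281, 1211 and 1982 in *Asxl1Y588X*Tg (-1.19, SE 0.27, adjusted p = 0.139). WT replicate 2 had the highest values of all of them, yet the other WT libraries also lay above every *Asxl1Y588X*Tg library. Summed over the list the libraries held 44044, 74779 and 52627 in WT and 19304, 25856 and 35005 in *Asxl1Y588X*Tg. Without WT replicate 2 the median was -0.84, with 8 genes lower at an unadjusted p under 0.05 and 1 called, and without *Asxl1Y588X*Tg replicate 2 6 genes were lower at an unadjusted p under 0.05. The share of eosinophil progenitors was not measured.

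Erythroid genes did not separate the genotypes. None of 34 was called by edgeR or DESeq2, none had an unadjusted p under 0.05, and the median was -0.25. Summed over the list, WT replicate 2 held 37036 normalized counts, below the 75135 and 76235 of the other WT libraries and below the 45588, 55739 and 56061 of *Asxl1Y588X*Tg. *Klf1*, a master regulator of erythroid genes, was at 1287, 483 and 1382 in WT and 757, 864 and 759 in *Asxl1Y588X*Tg, so that the genotypes overlapped through WT replicate 2 alone. Without that library, 10 erythroid genes were downregulated, 22 were lower at an unadjusted p under 0.05 and the median was -0.52, with *Klf1* at -0.75 (adjusted p = 0.0086, edgeR's quasi-likelihood test) and *Gata1* at -0.64 (adjusted p = 0.037). *Hbb-bs*, a hemoglobin gene of the list, was at 3494, 3741 and 3948 in WT and 2763, 1808 and 6102 in *Asxl1Y588X*Tg. For this gene the genotypes overlapped through *Asxl1Y588X*Tg replicate 3 alone. The result of the erythroid list rested on WT replicate 2, and what sets that library apart was not tested.

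**Figure D4:**
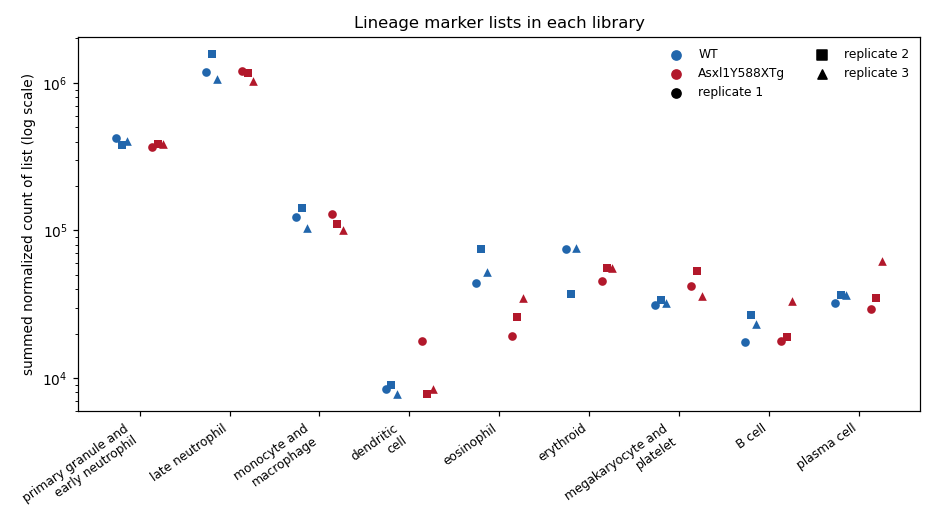
Summed normalized counts of 9 lineage marker lists in each library, on a log axis, with the genotype as color and the replicate as shape. The eosinophil sums of all 3 *Asxl1Y588X*Tg libraries lie below all 3 WT libraries, WT replicate 2 is the lowest for erythroid genes and the highest for late neutrophil genes, and *Asxl1Y588X*Tg replicate 1 is the highest for dendritic cell genes.

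No gene of the neutrophil and monocyte lists was called. Of 19 genes of primary granules and early neutrophils none was called by edgeR or DESeq2, 2 were lower at an unadjusted p under 0.05 and the median was -0.11. *Mpo*, the myeloperoxidase of these granules, was at 187218, 163990.0 and 182911 in WT and 161727, 169793 and 168507 in *Asxl1Y588X*Tg (-0.10, SE 0.09), and *Elane*, the neutrophil elastase, differed by -0.12 (SE 0.09). The genotypes overlapped in both. Late neutrophil genes (20, median -0.10, 2 lower at an unadjusted p under 0.05) and monocyte and macrophage genes (22, median 0.10, 2 higher) also had no call by either tool. Without WT replicate 2 the late neutrophil median was 0.11, and without *Asxl1Y588X*Tg replicate 1 the monocyte median was -0.26, with 2 higher and 4 lower at an unadjusted p under 0.05. Mast cell and basophil genes had a median of -0.01 over 15 genes. *Gata2*, a transcription factor shared with HSCs, was the only call in edgeR's filtered fit to the 6 libraries. DESeq2, edgeR on all 4 genotypes and edgeR without the expression filter each called 2. The list held no call when WT replicate 3 or any *Asxl1Y588X*Tg library was left out. *Gata2* was at 1039.6, 728 and 1056 in WT and 1519, 1632 and 1524 in *Asxl1Y588X*Tg (0.73, SE 0.13, adjusted p = 0.0276, edgeR's quasi-likelihood test), whereas *Cpa3*, the mast cell carboxypeptidase, was at 532, 658 and 564 in WT and 682, 529 and 535 in *Asxl1Y588X*Tg.

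Lymphoid and antigen-presenting programs varied with single mice. Neither tool called any of 24 B cell genes (median -0.35, none at an unadjusted p under 0.05), 31 T and NK cell genes (0.12, 3 higher), 20 genes of lymphoid-primed progenitors (-0.04, none) or 18 dendritic cell genes (0.45, 1 higher). Without the expression filter, edgeR called 1 T and NK cell gene and 1 dendritic cell gene as upregulated. *Asxl1Y588X*Tg replicate 1 held 17927 summed normalized counts of dendritic cell genes against 7789 to 8966 in the other 5 libraries, and without it the median was -0.11. Without the same library the B cell median was -0.98, with 12 genes lower at an unadjusted p under 0.05, and that of T and NK cell genes was -0.70, with 10 lower. Antigen presentation genes had a median of 0.35 over 29 genes, with 8 higher at an unadjusted p under 0.05, and a median of 0.09 without *Asxl1Y588X*Tg replicate 1. None was called in edgeR's filtered fit to the 6 libraries, 1 by edgeR on all 4 genotypes, and 3 by DESeq2 or by edgeR without the filter. Among 168 immunoglobulin genes 2 were upregulated, both for heavy chains, beside 1.58% of all genes tested. *Ighg2b* was at 486, 751 and 590.0 in WT and 5095, 4065 and 2769.7 in *Asxl1Y588X*Tg (2.71, SE 0.26, adjusted p = 0.00664, edgeR's quasi-likelihood test). The neighbouring *Ighg2c*, a similar sequence whose reads may be shared with it, was at 557, 396 and 540.3 in WT and 1147, 2475 and 2466 in *Asxl1Y588X*Tg (2.03, SE 0.33, adjusted p = 0.0467). These counts lay above WT in every *Asxl1Y588X*Tg library. Plasma cell genes, the normal source of secreted heavy chains, had a median of 0.17 over 18 genes, with *Ighg2b* and *Ighg2c* as the only calls. In this list and in the immunoglobulin list, only 1 gene was called when any WT library or *Asxl1Y588X*Tg replicate 2 or 3 was left out.

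Of the 5 downregulated genes, *Thbs1* was the most abundant and the only one called under every alternative. *Thbs1* (chr2:118111876-118127133) encodes thrombospondin 1, a matricellular protein of platelets and monocytes that activates latent TGF-beta and binds CD36 and CD47. It was at 2331, 3015 and 2092 normalized counts in WT and 737, 738 and 575 in *Asxl1Y588X*Tg, a mean of 2479 ± 479 against 683 ± 93.7 (SD, n = 3). Even the lowest WT library was far above the highest *Asxl1Y588X*Tg library. The log2 fold change was -1.86 (SE 0.15, adjusted p = 0.0011, edgeR's quasi-likelihood test), or 3.63-fold lower. Its receptors were not called: *Cd47* was at 15608, 17415 and 14959 in WT and 16024, 16065 and 15375 in *Asxl1Y588X*Tg, and *Cd36* was at 153, 106 and 109 in WT and 71.5, 49.2 and 68.3 in *Asxl1Y588X*Tg (-0.96, SE 0.27, adjusted p = 0.153). In the list of thrombospondins and matricellular genes of the TGF-beta axis, 1 of 44 was upregulated, 2 were downregulated and the median was 0.06.

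*Gdf3*, a ligand of the TGF-beta family (from the same list), was at 486, 463 and 500.2 in WT and 130.0, 181 and 279 in *Asxl1Y588X*Tg (-1.30, SE 0.24, adjusted p = 0.0301, edgeR's quasi-likelihood test). *Chek2*, the DNA damage checkpoint kinase CHK2, was at 564, 602 and 696 in WT and 391, 357 and 420.1 in *Asxl1Y588X*Tg (-0.67, SE 0.12, adjusted p = 0.0249). Both were lower in every *Asxl1Y588X*Tg library, with a narrow spread within WT. Without 1 library, *Gdf3* lost its call when any WT library or *Asxl1Y588X*Tg replicate 2 was left out, and *Chek2* when WT replicate 3 or any *Asxl1Y588X*Tg library was. *Chek2* was the only called gene of 50 p53 targets and DNA damage response genes, whose median was 0.01. The other 2 were *Rps4l*, at 119.8, 157 and 143 in WT and 23.8, 50.2 and 44.2 in *Asxl1Y588X*Tg (-1.82, SE 0.31, adjusted p = 0.0174), and the noncoding *Gm38575*, at 68.5, 68 and 43.4 in WT and 14.9, 12.8 and 9.04 in *Asxl1Y588X*Tg (-2.28, SE 0.40, adjusted p = 0.0211). *Rps4l* lost its call without WT replicate 3 or *Asxl1Y588X*Tg replicate 3, and *Gm38575* without WT replicate 2 or any *Asxl1Y588X*Tg library. *Rps4l* is annotated as a processed pseudogene of a ribosomal protein gene within *Tmtc1*, so reads could have been split with near-identical copies, and cytosolic ribosomal protein genes as a whole had a median of -0.02 over 83 genes with *Rps4l* as the only call.

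Below the threshold, the most abundant gene with a large difference outside the eosinophil list was *Olfm4*, a glycoprotein of a subset of neutrophils, at 3981, 7548 and 4383 in WT and 1907, 2271 and 1744 in *Asxl1Y588X*Tg (-1.43, SE 0.26, adjusted p = 0.0604, edgeR's quasi-likelihood test). The groups did not overlap, the WT spread was wide, and without WT replicate 2 the gene was called (-1.08, adjusted p = 0.0047). *Fgd6*, a guanine nucleotide exchange factor, was at 277, 234 and 264 in WT and 172, 128 and 137 in *Asxl1Y588X*Tg (-0.83, SE 0.18, adjusted p = 0.054). *Ugt8a*, the ceramide galactosyltransferase, was at 180.2, 317 and 206 in WT and 79.4, 128 and 129 in *Asxl1Y588X*Tg (-1.06, SE 0.27, adjusted p = 0.108). *Cnn3*, an actin-binding calponin, and *Mreg*, a regulator of melanosome and lysosome transport, differed by -0.85 and -0.84 (adjusted p = 0.0917 and 0.0931). All of these were lower in the 3 *Asxl1Y588X*Tg libraries. None passed with edgeR's quasi-likelihood test on the WT and *Asxl1Y588X*Tg libraries, whereas DESeq2 called all 5, and edgeR on all 4 genotypes called each of them but *Fgd6*.

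**Figure D5:**
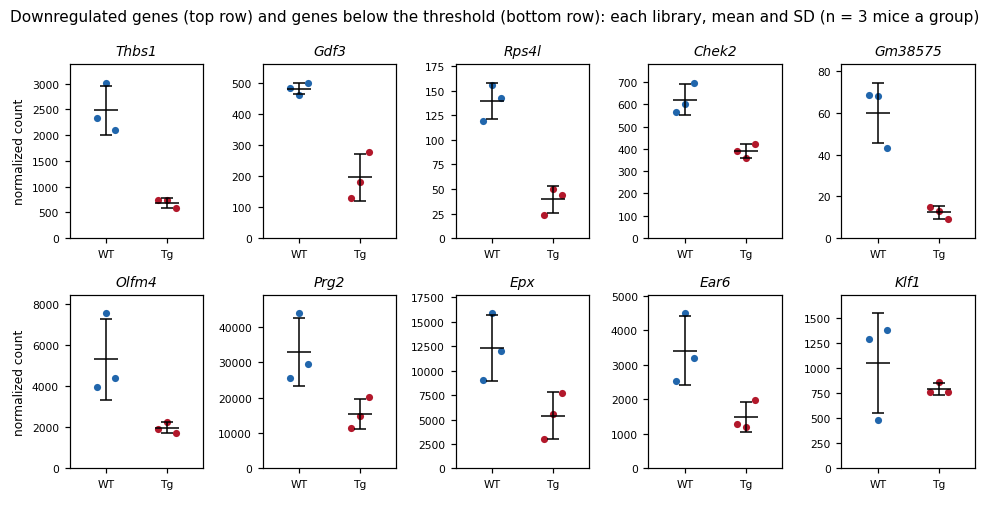
Normalized counts of the 5 downregulated genes (top) and of 5 genes that did not pass the threshold (bottom) in each WT and *Asxl1Y588X*Tg (Tg) library, with mean and SD (n = 3). All *Asxl1Y588X*Tg points lie below all WT points except for *Klf1*, where WT replicate 2 (483) is below the *Asxl1Y588X*Tg libraries.

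Growth and housekeeping lists held few called genes. None of 49 G2 and M phase genes was called by edgeR or DESeq2, although 22 were lower in all 3 *Asxl1Y588X*Tg libraries than in all 3 WT libraries (5.34% of all genes tested were), 11 were lower at an unadjusted p under 0.05 (2.05% of all genes tested) and the median was -0.14. Their sums were 164266, 164876 and 165797 in WT and 143822, 147117 and 170517 in *Asxl1Y588X*Tg, with *Asxl1Y588X*Tg replicate 3 the highest of all, and without *Asxl1Y588X*Tg replicate 1 only 2 genes were lower at an unadjusted p under 0.05. S phase genes had a median of -0.08 over 46 genes with 1 lower at an unadjusted p under 0.05 and no call by either tool. Replication-dependent histone genes, under their current symbols, had a median of -0.13 over 48 genes, with 8 lower at an unadjusted p under 0.05. None was called in edgeR's filtered fit to the 6 libraries. DESeq2, edgeR on all 4 genotypes and edgeR without the expression filter each called 1 as downregulated. The histone genes lower at an unadjusted p under 0.05 numbered 2 without *Asxl1Y588X*Tg replicate 3 and 15 without *Asxl1Y588X*Tg replicate 2. Proteasome subunits (38 genes, -0.02) and mitochondrial ribosomal proteins (77 genes, -0.05) had no call by either tool and none at an unadjusted p under 0.05. Nuclear genes of respiratory complexes I to V had a median of -0.05 over 92 genes, with a single call for the pseudogene *Ndufa12-ps*. Without WT replicate 2, the genes lower at an unadjusted p under 0.05 numbered 8 for S phase, 3 for the proteasome, 12 for mitochondrial ribosomal proteins and 10 for the respiratory complexes. Of 32 immediate-early genes *Egr3* was upregulated (1.33, SE 0.28), 10 were higher at an unadjusted p under 0.05 and the median was 0.36. *Egr3* lost its call without WT replicate 1 or 3 or any *Asxl1Y588X*Tg library, and the median was 0.20 without WT replicate 2 and 0.58 without WT replicate 1. *Egr3* encodes a zinc-finger factor induced by growth signals.

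The effect of the transgene could also be read in the other 6 libraries, as *Asxl1Y588X*Tg *Kdm6b* delta/+ against *Kdm6b* delta/+, a comparison that shares no library with the one above. Transcripts of the Y chromosome were present in all 3 *Asxl1Y588X*Tg *Kdm6b* delta/+ libraries (1561, 1055 and 970 counts of *Ddx3y*) and in 2 of the 3 *Kdm6b* delta/+ libraries (708 and 1039, against 8 in the other), so sex differed within this comparison and between the backgrounds, and its part was not tested. With the same test 9 genes were higher (0.0569%) and 6 lower (0.0379%), and at an unadjusted p under 0.05 1035 genes (6.54%) were higher and 897 (5.67%) lower. Of the 250 genes upregulated on the WT background, 234 had a positive log2 fold change here, against 50.27% of all genes tested. At an unadjusted p under 0.05, 125 of them were higher and 0 lower, and their median was 0.83 against 0.00 for all genes. Only *Evc*, *Evc2*, *Clec1a* and *Trpc6* were called on both backgrounds. *Evc* rose by 3.29 (SE 0.33, adjusted p = 0.0017, edgeR's quasi-likelihood test) and *Evc2* by 3.92 (SE 0.37, adjusted p = 0.0013) with 1 deleted *Kdm6b* allele, beside 4.05 and 3.42 without it. *Clec1a*, a C-type lectin-like receptor, rose by 1.95 (SE 0.28) beside 2.60 (SE 0.34), and *Trpc6*, a cation channel, by 1.52 (SE 0.25) beside 1.77 (SE 0.30).

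Among the genes with lower levels, *Chek2* fell by 0.87 (SE 0.10, adjusted p = 0.005, edgeR's quasi-likelihood test) and *Rps4l* by 1.72 (SE 0.21, adjusted p = 0.0063) on the *Kdm6b* delta/+ background, and *Olfm4* (-0.68, SE 0.08) and *Ear6* (-0.71, SE 0.11), which missed the threshold against WT, were called lower there. *Thbs1* had a log2 fold change of 0.36 (SE 0.51) there, and the difference between the backgrounds was 2.21 (adjusted p = 0.402), which did not pass the test. *Gdf3* was at -0.24 and *Gm38575* at -0.05 there. Eosinophil genes had 8 of 11 lower at an unadjusted p under 0.05 and a median of -0.39, and 1 called. Megakaryocyte genes had 21 of 31 higher at an unadjusted p under 0.05 and a median of 0.61, with 2 called. HSC genes had 20 of 39 higher at an unadjusted p under 0.05 and a median of 0.64, with 0 called. Erythroid genes had a median of 0.00. *Ighg2b* and *Ighg2c* were at -0.11 and -1.13.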

How the data were processed

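RNA of LK cells was sequenced from 12 mice, 1 library per mouse, and 3 WT and 3 *Asxl1Y588X*Tg libraries were compared. The authors trimmed the reads with Trimmomatic, aligned them to mm10 with STAR and counted them with HTSeq, and the deposited values are raw counts for 55291 genes, with 22587 at 0 throughout. The sample labels name an NEB Ultra kit and a NextSeq sequencer, whereas the methods name a KAPA stranded kit and a HiSeq. Annotation and strand of the counting are not given in the sources used here, so overlapping and antisense genes are uncertain.

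Genes were filtered with filterByExpr (15825 kept, with 99.85% of the counts), scaled by TMM and tested with edgeR 4.0.16 (R 4.3.3, limma 3.58.1) by a robust quasi-likelihood fit to the 6 libraries, and p-values were adjusted over all tested genes by the Benjamini-Hochberg method. A call needed an adjusted p under 0.05 and a fold above 1.5. Standard errors were derived from the F statistic. Normalized counts were scaled to the mean library size (17176288). Each mouse is a replicate, and replicates differed by more than counting noise (chi-square per gene 12.0 to 32.8). Folds against 0 counts used a floor of 3 counts over the group, and intervals and floors cover counting error only. Positions came from GENCODE vM21 and promoters from RefSeq.

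Alternatives were DESeq2 1.42.0, a fit of all 4 genotypes, RLE scaling, no filter, a mean count of at least 50, a replicate block, and leaving out each library, among them that with Y-linked transcripts. The steps were tested on simulated data with 50 changed genes at each fold. There edgeR recovered 26% of 1.5-fold, 54% of 2-fold and 90% of 4-fold changes. It also called 20 unchanged genes, beside the 13, 27, 45 and 45 changed genes recovered at 1.5-, 2-, 4- and 8-fold. DESeq2 called 37 unchanged genes. Smaller changes could thus be missed, and some called genes could be unchanged. Gene lists and the choice of comparison were made with earlier results of these data known. Named genes are all downregulated genes, the 25 largest log2 rises and the 20 lowest log2 fold changes at a mean normalized count of at least 100 without overlap, the 10 largest rises in count, up to 4 called and the 2 most abundant members of each list, and a few genes of the design. *Evc*, *Tdrd9*, *Selp*, *Pf4*, *Cdh5*, *Cd36*, *Cd47*, *Klf1*, *Gata1*, *Hbb-bs*, *Cpa3*, *Col1a2*, *Prg3*, genes of low WT count, and further members used as examples were chosen after their values were seen. A few results are not reported here.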

Additional observations from a re-analysis of the deposited data

Results flagged for a closer look

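The effect of the *Asxl1* transgene differed between the *Kdm6b* wild-type and *Kdm6b* delta/+ backgrounds for 2 genes, by the interaction term of edgeR's quasi-likelihood fit to all 12 libraries with Benjamini-Hochberg adjustment. For *Scarf1*, a scavenger receptor of endothelial cells and phagocytes, the difference of the log2 effects was -1.51 (SE 0.21, adjusted p = 0.0431). Its normalized count was 213.5 ± 13.2 in WT, 518 ± 18.6 in *Asxl1Y588X*Tg, 268 ± 47.3 in *Kdm6b* delta/+ and 229 ± 41.8 in *Asxl1Y588X*Tg *Kdm6b* delta/+ (SD, n = 3 each). For *Tmem215*, a membrane protein gene, the difference was -2.77 (SE 0.41, adjusted p = 0.0431), with 49.2 ± 3.67, 278 ± 35.1, 43.6 ± 10.2 and 36.4 ± 17.8 in the same order. Both genes were among the 250 upregulated genes, whose choice used the WT and *Asxl1Y588X*Tg libraries that enter the interaction. No gene passed when a mean count of 50 was required, 0 to 10 passed without 1 library, and 70 passed with DESeq2. Transcripts of the Y chromosome were present in no WT library, 1 *Asxl1Y588X*Tg library, 2 *Kdm6b* delta/+ libraries and 3 *Asxl1Y588X*Tg *Kdm6b* delta/+ libraries, and the part of sex in these differences was not tested. At an unadjusted p under 0.05 the interaction was negative for 747 genes and positive for 340.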

How the results depend on the processing

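Upregulated and downregulated genes numbered 456 and 17 with DESeq2, 430 and 16 with edgeR on all 4 genotypes, 591 and 28 without an expression filter, and 108 and 2 without the library with Y-linked transcripts. With DESeq2 the 456 held all 250 genes and the 17 all 5. Leaving out 1 library at a time gave 108 to 245 upregulated and 2 to 42 downregulated genes, and 0 to 10 genes with a difference between *Kdm6b* backgrounds, which 70 genes passed with DESeq2 and 0 (749 at an unadjusted p under 0.05) when genes had to reach a mean count of 50. The replicate numbers did not pair the libraries (Pearson r of the deviations from the group means -0.051, -0.093 and 0.022 for equal numbers), and a fit with the replicate number as a block gave 96 upregulated genes. No called gene that the text names changed direction under any alternative. Some list medians did. Without *Asxl1Y588X*Tg replicate 1 those of dendritic, monocyte and T and NK cell genes went from 0.45, 0.10 and 0.12 to -0.11, -0.26 and -0.70, without *Asxl1Y588X*Tg replicate 3 that of immunoglobulin genes from 0.20 to -0.48, and without WT replicate 2 that of late neutrophil genes from -0.10 to 0.11. RLE scaling changed no call of a named gene, and called 8 in place of 7 genes of receptor tyrosine kinases and angiocrine ligands. Without 1 library, between 13 (WT replicate 2) and 36 (*Asxl1Y588X*Tg replicate 2) of the named genes lost their call. The causes were not tested. Genes with few counts carry wide counting intervals, as given for *Gli3*.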
